A study of Schizosaccharomyces pombe with 4 samples.

Results

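The introns described here are the short introns of the fission yeast *Schizosaccharomyces pombe*, those of 30 to 42 bases in nuclear protein-coding genes. The deposited table also lists 30 features of 18 bases or less as introns of such genes, which were not taken. Width and host alone chose the short introns, and the rule took 751 of the 5361 introns in the deposited table (14.01%), spread over 535 host genes. Of these hosts, 398 hold 1 such intron, 92 hold 2 and 45 hold 3 or more. RNA from 2 dbr1Δ cultures and 2 wild-type cultures (ED668), grown and processed separately in rich YES medium, was depleted of ribosomal RNA and sequenced as 49-base reads. The dbr1Δ cells came from the Bioneer deletion collection and lack dbr1, which encodes the lariat debranching enzyme. Both strains are h+ and carry ade6-M216, ura4-D18 and leu1-32, so mutant and control share these marker alleles, and each genotype is represented by a single strain.

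In splicing, the spliceosome first joins the 5′ end of the intron to an adenosine near its 3′ end, the branch point, and then ligates the exons, which releases the intron as a looped lariat. Dbr1 cuts the bond at the branch point, and the opened intron is degraded. Introns of fission yeast are mostly short and open with GT, close with AG and carry a branch-site motif a few bases before the end. In short ones the splice sites and the branch point lie close together.

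A 49-base read cannot lie within an intron of 42 bases or less, so a read counted for one of these introns must reach into an exon. Unspliced RNA was therefore followed by the boundary reads (EI), which span the junction of the upstream exon with the intron, and spliced RNA by the junction reads (JR), which span the joined exons. Splicing efficiency (SE) was log2((JR + 1)/(EI + 1)), so each unit is a factor of 2. A value of 0 means as many spliced as unspliced reads, or no read of either class. In bulk RNA, fewer cells carrying a transcript and less of it per cell cannot be told apart.

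Sequences are shown for the introns on which the results turn, from the RefSeq genome (ASM294v3) and only where the intron lies between coding exons at the same coordinates in that annotation. Capitals mark the first 6 bases, which hold the 5′ splice site, and the last branch-site pentamer found by a search of the intron strand. The first set holds introns that lost splicing efficiency in dbr1Δ cells or had the most reads.
rps27 intron 1 (II:517350-517387, plus strand): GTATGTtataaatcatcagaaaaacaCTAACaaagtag
mtq2 intron 2 (I:3915228-3915266, minus strand): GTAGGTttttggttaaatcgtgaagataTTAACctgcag
ssl3 intron 2 (I:937720-937759, minus strand): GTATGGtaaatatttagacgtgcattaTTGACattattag
sec15 intron 4 (III:592792-592831, plus strand): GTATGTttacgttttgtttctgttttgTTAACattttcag
dre4 intron 1 (I:426070-426105, plus strand): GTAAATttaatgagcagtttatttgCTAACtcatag
hob3 intron 1 (II:1223107-1223148, minus strand): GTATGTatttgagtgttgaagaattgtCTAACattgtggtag
nda3 intron 3 (II:3965693-3965733, minus strand): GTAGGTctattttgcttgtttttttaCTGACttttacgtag
The second set holds the GC-opening intron of sce3 and the 2 shortest of the 751 that had junction reads and enough reads for a test.
sce3 intron 1 (II:1776857-1776893, minus strand): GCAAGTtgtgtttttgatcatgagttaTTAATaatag
vma11 intron 2 (I:2057696-2057727, plus strand): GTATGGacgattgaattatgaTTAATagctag
atg44 intron 1 (I:3367021-3367053, minus strand): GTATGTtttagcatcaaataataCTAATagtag
The third set holds annotated introns whose host was read but which had no junction read in any library, and its first 2 sequences carry no pentamer in the searched window.
SPAC24B11.14 intron 2 (I:230800-230829, plus strand): GTAGTTaacaaacatactctaaacttatag
SPBC409.08 intron 1 (II:1152174-1152215, plus strand): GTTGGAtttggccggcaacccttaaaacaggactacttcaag
rsn1 intron 1 (II:563929-563964, minus strand): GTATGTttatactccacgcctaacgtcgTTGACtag

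Of the 751 introns, 735 lay at the same coordinates in the RefSeq annotation (721 between coding exons and 14 in untranslated parts), 2 belonged to another gene there and 14 were not annotated. Sequence was read for the 735, and 733 of them open with GT and close with AG. The remaining pair, in sce3 and mnh1, opens with GC. The commonest opening was GTAAGT, in 22.6% of the 735 introns, against 28.6% of the 4440 matched introns of 43 bases or more. GTATGT opened 15.4% of the short introns and 20.6% of the wider ones, whereas GTTTGT opened 3.81% of the short introns and 1.28% of the wider ones. The 3′ end was TAG in 63.0% of the short introns and 69.5% of the wider ones, and CAG in 22.04% and 18.4%, short introns first.

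A pentamer was sought from base 7 to 3 bases before the 3′ end, on the intron strand, as the last run of C or T, then T, then A or G, then A, then C or T, a family of 8 pentamers to which CTAAC and CTAAT belong. One was found in 92.7% of the short introns and 96.5% of the wider ones, whose window is longer. CTAAC was the last match in 29.3% of the short introns against 42.7% of the wider ones, CTAAT in 26.7% against 21.7%, and TTAAC in 19.3% against 14.9%. The median number of bases after the branch adenosine was 9 in short introns and 11 in wider ones. The median distance from the 5′ end to that adenosine was 31 bases in short introns and 49 in wider ones. Median GC content was 27.5% in short introns and 29.1% in wider ones, and the width was a multiple of 3 in 38.1% and 31.1%, short introns first.

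The libraries held 24205354 and 19780858 counts over transcripts and introns in dbr1Δ cells and 25169220 and 36062720 in wild-type cells. The deleted gene dbr1 had 207 and 164 transcript counts in dbr1Δ cells against 1535 and 1799 in wild-type cells (log2 fold change -2.77, standard error 0.12, edgeR quasi-likelihood adjusted p = 3.8e-07). Of its 4 introns, 2 are among the short ones. Intron 3 (39 bases) had 0 and 0 junction reads in dbr1Δ cells against 138 and 165 in wild-type cells, at least 75.3-fold lower against a floor of 3 counts over both dbr1Δ libraries. Intron 4 (40 bases) had 0 and 0 against 24 and 25, at least 12.2-fold lower. Reads counted over intron 4 were nonetheless 54 and 50 in dbr1Δ cells against 3 and 2 in wild-type cells, with 0 and 0 boundary reads against 1 and 8, and whether the deleted part covers this intron was not tested. Both introns are counted among the 751, and counts without them are given where they matter.

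The short introns were thinly read one by one. The median intron had a mean of 1.25 boundary reads and 12.75 junction reads per library, and 38 introns had no read of either class in any library. A mean of at least 10 boundary plus junction reads, required for the tests of SE, left 467 introns and removed 284. Without any boundary read were 118 introns, and without any junction read 60 (7.99%, against 5.51% to 6.22% in the classes of wider introns). Of the 60, 11 were among the 14 introns not annotated in RefSeq, and the wider classes were not split this way. In the wider classes the median intron had 18.75 to 29.75 junction reads, and the part of this depth in the comparisons with wider introns was not tested.

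Over the 467 tested introns splicing efficiency was lower in dbr1Δ cells. The median SE was 3.04 and 3.0 in the dbr1Δ libraries against 4.00 and 4.12 in the wild-type libraries, so neither dbr1Δ library reached either wild-type one. The median difference, dbr1Δ minus wild type, was -1.07, beside -1.20 over all 3684 tested introns. Of the 467 introns, 405 had the lower mean in dbr1Δ cells (86.7%), against 87.9% of all tested introns. Both short introns of dbr1 are among these 405, with no read of either class in dbr1Δ cells. Without them the median difference was -1.06. With every library thinned to the smallest total the median difference was -0.94 in short introns and -0.94 in all introns. Thinning evens the depth of the libraries, not that of short and wider introns.

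**Figure D1:**
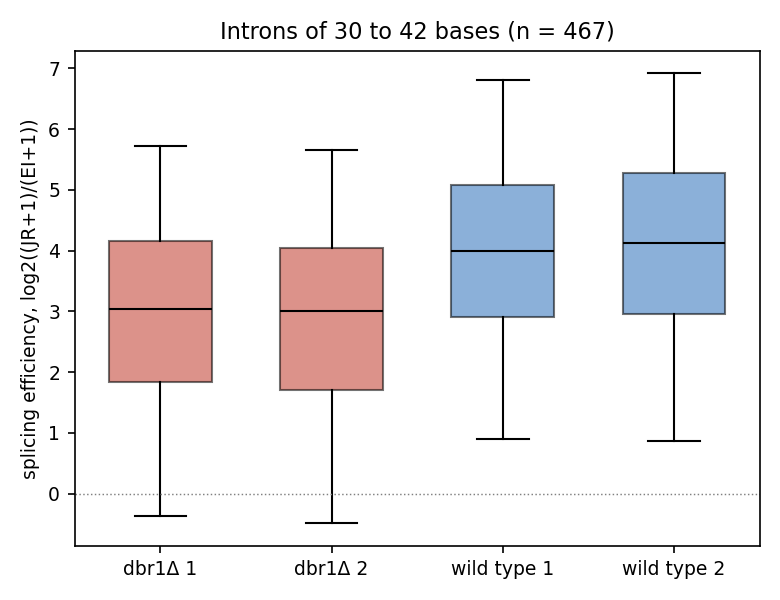
Splicing efficiency (log2) of the 467 tested introns of 30 to 42 bases in each library. Boxes span the quartiles with the median as a line, whiskers reach the 5th and 95th percentiles, and the medians are 3.04 and 3.0 in dbr1Δ (red) against 4.00 and 4.12 in wild type (blue).

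Tested one by one with the Cochran-Mantel-Haenszel (CMH) test over replicate numbers, 70 of the 467 introns had lower SE in dbr1Δ cells (15.0%), against a background of 20.8% of all 3684 tested introns. None had higher SE (background 0.109%), and none did at an unadjusted p under 0.05 by CMH or by edgeR. The edgeR interaction of read class with strain, which takes in the spread between cultures, called 43 lower (9.21%, background 13.1%), of which 42 were among the 70. In all 70, which lie in 70 hosts, both dbr1Δ values lay below both wild-type values. The same separation, with no test, was seen downward in 258 of the 467 introns (55.2%, against 62.3% of all tested introns) and upward in 16 (3.43%, against 3.23%). The CMH count was 34 without wild-type replicate 2 and 44 without wild-type replicate 1, and 43 after thinning. CMH treats reads as independent, and 44 of the 70 introns had a mean of fewer than 10 boundary reads.

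**Figure D2:**
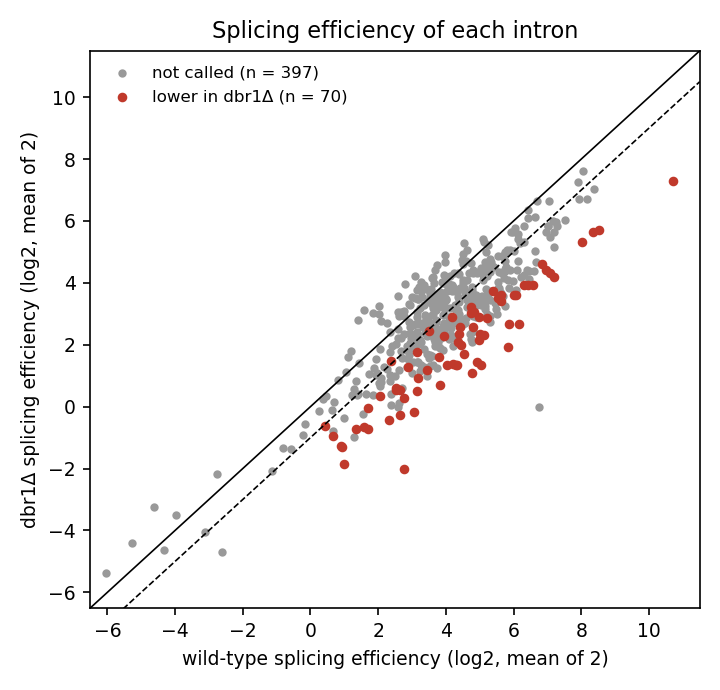
Mean splicing efficiency (log2) of each tested intron of 30 to 42 bases in dbr1Δ (vertical) against wild type (horizontal), with the solid line at equality and the dashed line 1 unit lower. The 70 introns called lower by CMH are red and lie from -0.89 to -4.79 units off equality. The grey point near 0 on the vertical axis at the right is intron 3 of dbr1, which had no boundary or junction read in dbr1Δ, so its value there is no measure of splicing.

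The largest falls were in hosts of unlike function. mtq2, which encodes the methyltransferase of the translation release factor eRF1, had in its intron 2 junction reads of 3 and 1 in dbr1Δ cells against 13 and 9 in wild-type cells, and boundary reads of 11 and 10 against 0 and 2. Its SE was -1.58 and -2.46 in dbr1Δ cells against 3.81 and 1.74 in wild-type cells, a difference of -4.79 (CMH adjusted p = 1.2e-05, edgeR interaction adjusted p = 0.0026). Unspliced reads outnumbered spliced ones in both mutant libraries and in neither wild-type library. An antisense transcript is annotated over this intron.

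ssl3, a cohesin loading factor, had SE of 1.38 and 2.46 in dbr1Δ cells against 5.43 and 6.25 in wild-type cells at intron 2 (difference -3.92, CMH adjusted p = 2.9e-09). Its boundary reads were 17 and 5 in dbr1Δ cells against 2 and 1 in wild-type cells, and its junction reads 46 and 32 against 128 and 151. The groups were apart on both read classes. sec15, a subunit of the exocyst that tethers secretory vesicles, had SE of 0.91 and 1.78 in dbr1Δ cells against 4.92 and 5.17 in wild-type cells at intron 4 (difference -3.70, CMH adjusted p = 5.6e-09). dre4, a splicing-associated factor, had SE of 1.62 and 0.53 in dbr1Δ cells against 3.98 and 5.55 in wild-type cells at intron 1 (difference -3.69, CMH adjusted p = 5.0e-07).

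The ribosomal protein gene rps27 held the most heavily read of the short introns. Its intron 1 had 9343 and 7644 junction reads in dbr1Δ cells against 19758 and 28813 in wild-type cells, and 61 and 47 boundary reads against 11 and 16. The boundary reads were higher in the mutant although its libraries were the shallower ones. SE was 7.24 and 7.32 in dbr1Δ cells against 10.69 and 10.73 in wild-type cells, a difference of -3.43 with replicates within 0.1 of each other (CMH adjusted p = 2.4e-41, edgeR interaction adjusted p = 7.5e-16). The rps27 transcript itself was at 613 and 674 CPM (reads scaled to a common library total) in dbr1Δ cells against 1149 and 1214 in wild-type cells (log2 fold change -0.88, edgeR adjusted p = 4.5e-05).

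Among the other introns with the largest falls, vps33, which encodes a subunit of the HOPS and CORVET tethers of the vacuole, differed by -3.47 at intron 2 (SE 2.32 and 3.04 in dbr1Δ cells against 5.98 and 6.32 in wild-type cells, CMH adjusted p = 2.5e-05). mug170, an arrestin family adaptor, differed by -3.24 at intron 1 (SE -0.17 and -0.19 in dbr1Δ cells against 2.94 and 3.17 in wild-type cells, CMH adjusted p = 3.2e-05). The cyclophilin cyp1 differed by -3.48 at intron 5 (CMH adjusted p = 0.0005), but passed the test neither without dbr1Δ replicate 2 (adjusted p = 0.10) nor without wild-type replicate 2 (adjusted p = 0.086). The lower SE of mtq2, ssl3, sec15, dre4, vps33, rps27 and mug170 passed the test with a constant of 0.5, after thinning, without the replicate block, with the edgeR interaction and without each library in turn.

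Boundary reads could be tested alone in only 56 of the 751 introns, and 18 of them were higher in dbr1Δ cells by edgeR at more than 2-fold (32.1%), against a background of 47.4% of 555 tested introns. The lower call was made for 1 (background 1.98%). The median log2 fold change was 0.56 in the 56 introns and 1.06 in all 555. The filter, at least 10 counts in 2 libraries, was met through the dbr1Δ libraries alone by 12 of the 56. Of the 18 higher calls, 11 are among those 12. It was met through the wild-type libraries alone by 4, among them the 1 lower call. With a mean of at least 10 counts over the 4 libraries instead, 15 introns were called higher. Leaving out any single library left 2 or 3 higher calls (2 without dbr1Δ replicate 1, 2 without dbr1Δ replicate 2, 3 without wild-type replicate 1 and 2 without wild-type replicate 2), and DESeq2 made 8.

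pth1, which encodes the hydrolase that cleaves peptidyl-tRNA, had 16 and 19 boundary reads at its intron 3 in dbr1Δ cells against 1 and 2 in wild-type cells. It met the filter only through the dbr1Δ libraries, where it is high, so its values are given without a test. It had no junction read in any library, and its transcript stood at 22.2 and 27.0 CPM in dbr1Δ cells against 22.7 and 22.9 in wild-type cells. hob3, a BAR-domain adaptor of the actin cytoskeleton, had 58 and 45 boundary reads in dbr1Δ cells against 10 and 10 in wild-type cells (log2 fold change 2.77, standard error 0.31, edgeR adjusted p = 1.6e-05). Its junction reads overlapped between strains, at 1347 and 919 in dbr1Δ cells against 1236 and 1535 in wild-type cells, and SE was 4.51 and 4.32 against 6.81 and 7.13. The rises of hob3 and rps27 (log2 fold change 2.41, edgeR adjusted p = 2.3e-05) passed edgeR without each library in turn.

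SPCC663.18, annotated as a GTPase-interacting protein, had 35 and 35 boundary reads in dbr1Δ cells against 8 and 5 in wild-type cells, with a host transcript of 218 and 220 CPM against 226 and 214. The calcium sensor ncs1 had 29 and 12 boundary reads in dbr1Δ cells against 1 and 5 in wild-type cells at intron 1. Both met the filter of 10 counts in 2 libraries through the dbr1Δ libraries alone, where they are high. Their boundary reads are therefore given without a test. The host of ncs1 was also higher, at 49.4 and 54.6 CPM in dbr1Δ cells against 31.5 and 34.4 in wild-type cells. The heterochromatin protein gene chp2 had 32 and 21 boundary reads in its only intron in dbr1Δ cells against 15 and 13 in wild-type cells, and 32 and 31 junction reads against 98 and 102. Its SE was 0.00 and 0.54 in dbr1Δ cells against 2.63 and 2.88 in wild-type cells (difference -2.48, CMH adjusted p = 9.2e-10), while the host stood at 36.7 and 30.8 CPM against 37.3 and 35.2. Taken alone, the boundary reads of chp2 did not pass edgeR when any 1 of the 4 libraries was left out.

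**Figure D3:**
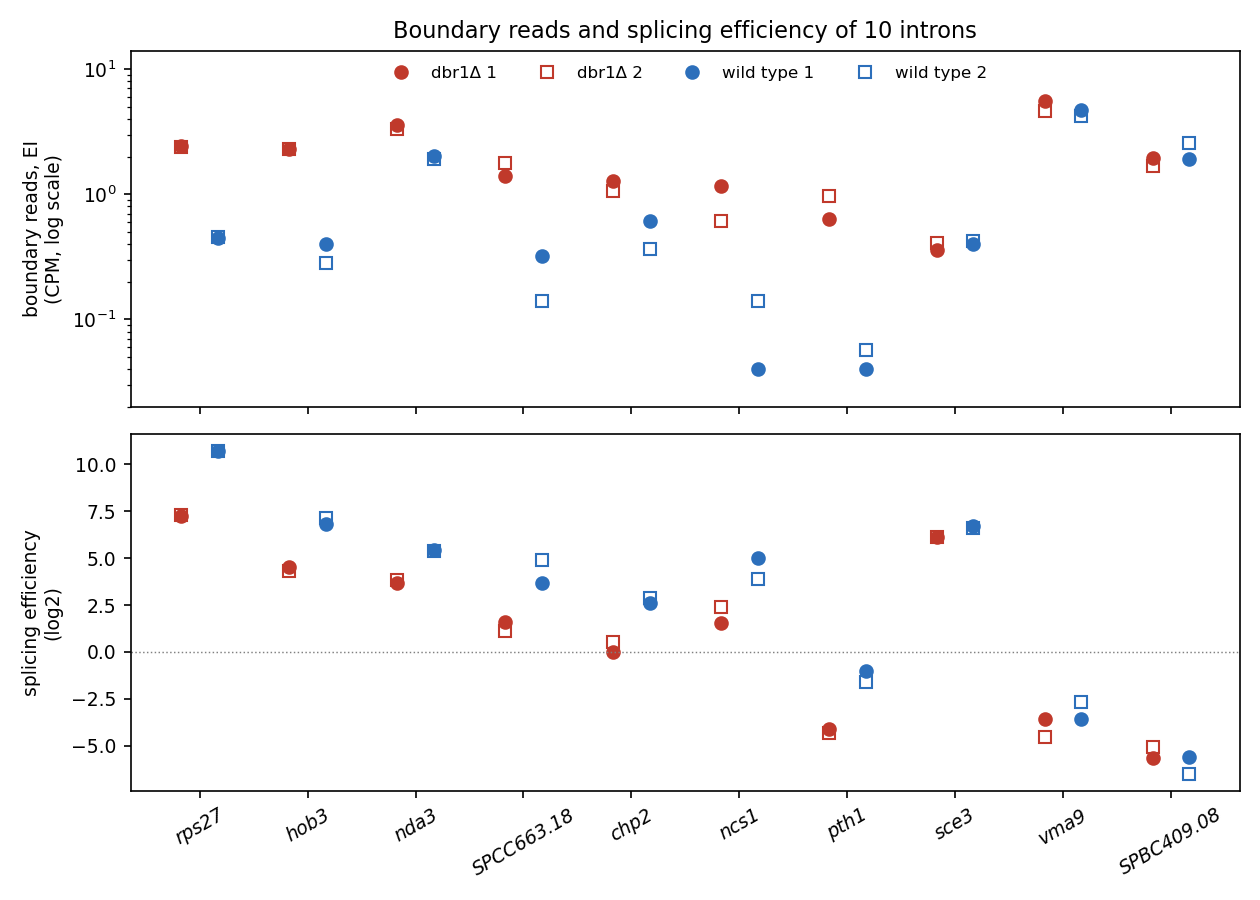
Boundary reads in CPM on a log scale (top) and splicing efficiency on a log2 scale (bottom) for 10 introns of 30 to 42 bases, with dbr1Δ in red to the left of wild type in blue and a filled and an open mark for replicates 1 and 2. The dbr1Δ boundary reads lie above those of wild type in the first 7 introns, whereas in sce3, vma9 and SPBC409.08 the strains overlap or lie close together.

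Not every well-read intron had boundary reads called higher at more than 2-fold. The GC-opening intron 1 of sce3, a translation initiation factor, had 688 and 634 junction reads in dbr1Δ cells against 1153 and 1529 in wild-type cells, and 9 and 8 boundary reads against 10 and 15. Its SE differed by -0.52 (6.11 and 6.14 in dbr1Δ cells against 6.71 and 6.58 in wild-type cells, CMH adjusted p = 0.72), below the threshold of the test. nda3, the beta-tubulin gene, had 89 and 66 boundary reads at intron 3 in dbr1Δ cells against 50 and 68 in wild-type cells, a log2 fold change of 0.81 that passed edgeR (adjusted p = 0.0080) but not the 2-fold threshold, and that did not pass edgeR with any 1 library left out (adjusted p 0.34 to 0.53). Its junction reads were 1156 and 940 in dbr1Δ cells against 2179 and 2853 in wild-type cells. SE was 3.68 and 3.81 in dbr1Δ cells against 5.42 and 5.37 in wild-type cells, a difference of -1.65 (CMH adjusted p = 3.5e-19).

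Junction reads were lower in 69 of 450 tested introns (15.3%) by edgeR at more than 2-fold, against a background of 12.9% of 3593 introns. They were higher in 10 (2.22%, background 1.89%). The median log2 fold change was -0.36 in the short introns, beside -0.34 in all introns tested. With factors taken from transcripts alone, which put the median of all transcripts at -0.01 instead of -0.18, the median of the short introns was -0.18, and 47 were called lower and 16 higher. Without the introns of dbr1, 67 were lower. Leaving out one library left 11 lower and 0 higher calls (dbr1Δ replicate 1), 14 and 1 (dbr1Δ replicate 2), 3 and 0 (wild-type replicate 1) and 4 and 0 (wild-type replicate 2).

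The filter was met through the wild-type libraries alone by 37 of the 450 introns, 15 of them among the 69 lower calls, and through the dbr1Δ libraries alone by 4, of which 2 were among the 10 higher calls. With a mean of at least 10 counts instead, 68 were lower and 13 higher. Of the introns that passed through wild type alone, ate1, SPAC17H9.06c and vma11 are given without a test. Intron 2 of vma11, a proteolipid subunit of the vacuolar ATPase and at 32 bases one of the shortest introns, had 2 and 1 junction reads in dbr1Δ cells against 11 and 12 in wild-type cells. Its boundary reads were 1 and 4 in dbr1Δ cells against 3 and 9 in wild-type cells, so that SE overlapped between strains (0.58 and -1.32 in dbr1Δ cells, 1.58 and 0.38 in wild-type cells). The arginyltransferase gene ate1 had 2 and 0 junction reads at intron 5 in dbr1Δ cells against 12 and 10 in wild-type cells, and its transcript was also lower, at 13.4 and 13.5 CPM against 28.3 and 23.3. SPAC17H9.06c had 2 and 1 at intron 1 in dbr1Δ cells against 10 and 15 in wild-type cells, with a transcript of 26.0 and 26.0 CPM against 26.8 and 26.6.

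Higher calls in junction reads included lsm4, emc5, mug162, pdx1 and mpc1, of which lsm4 and mug162 met the filter through the dbr1Δ libraries alone. lsm4, which encodes a protein bound to the U6 small nuclear RNA, had 16 and 17 junction reads at intron 1 in dbr1Δ cells against 2 and 5 in wild-type cells. mug162 had 15 and 14 at intron 3 in dbr1Δ cells against 8 and 7 in wild-type cells. The values of lsm4 and mug162 are given without a test, since the filter was met only where they are high. mpc1, a subunit of the mitochondrial pyruvate carrier, had 262 and 150 in dbr1Δ cells against 83 and 139 in wild-type cells (log2 fold change 1.31, edgeR adjusted p = 7.7e-06), and its transcript stood at 295 and 245 CPM in dbr1Δ cells against 180 and 194 in wild-type cells. pdx1, of the pyruvate dehydrogenase complex, had 29 and 18 in dbr1Δ cells against 11 and 14 in wild-type cells, with no boundary read in any library. None of these 5 introns passed the CMH test on SE, where adjusted p ran from 0.17 to 1. Of these rises, that of mpc1 alone passed edgeR with a library left out, and only without dbr1Δ replicate 2 (adjusted p = 0.00084).

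Of the 70 introns with lower SE, 28 also had lower junction reads, and 14 of the 29 whose boundary reads could be tested had higher boundary reads. Over all tested introns, 12.9% were lower in junction reads and 47.4% higher in boundary reads. SE is computed from both read classes, so these overlaps are not independent of the SE call. The host transcript was called lower for 2 of the 70 and higher for none. Over the 528 hosts tested, 13 transcripts were higher (2.46%, background 6.69%) and 14 lower (2.65%, background 2.81%) at more than 2-fold by edgeR. The hosts are all protein-coding, but this background includes noncoding RNAs, which the paper found to be most of its increased transcripts. A background of coding transcripts alone was not taken. The hosts' median log2 fold change was -0.27, beside -0.18 over all 6401 transcripts, and -0.09 with factors from transcripts alone, where 4 hosts were lower. Higher host calls numbered 6 without dbr1Δ replicate 1, 7 without wild-type replicate 1 and 8 without either of the remaining libraries.

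Summed over all 751 introns, boundary reads were 3024 and 2189 in dbr1Δ cells against 1610 and 2501 in wild-type cells, and junction reads 34168 and 26889 against 53443 and 76359. Boundary reads made up 8.13% (95% Wilson interval 7.86 to 8.41) and 7.53% (7.23 to 7.84) of boundary plus junction reads in dbr1Δ cells, against 2.92% (2.79 to 3.07) and 3.17% (3.05 to 3.30) in wild-type cells. The shares did not overlap, and the intervals cover counting error only. rps27 alone gave 27.3% and 28.4% of the junction reads in dbr1Δ cells and 36.97% and 37.7% in wild-type cells. Without it the shares were 10.7% and 10.02% in dbr1Δ cells against 4.53% and 4.97% in wild-type cells.

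Reads counted inside the introns were set beside those of wider introns of nuclear protein-coding genes. In CPM, the intron reads of the short introns summed to 409 and 405 in dbr1Δ cells against 361 and 379 in wild-type cells, a ratio of means of 1.10. The ratio was 1.22 at 43 to 60 bases, 2.17 at 61 to 100, 7.03 above 100 and below 200, and 8.79 at 200 or more. The boundary reads rose with width over a narrower range, with ratios of 1.71 in the short introns and 2.05, 2.09, 2.14 and 2.64 in the wider classes in the same order. For junction reads the ratio was 0.63 in the short introns and between 0.69 and 0.78 in the wider classes, and without rps27 it was 0.73 in the short introns. Differences between width classes are given as values, and were not tested.

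**Figure D4:**
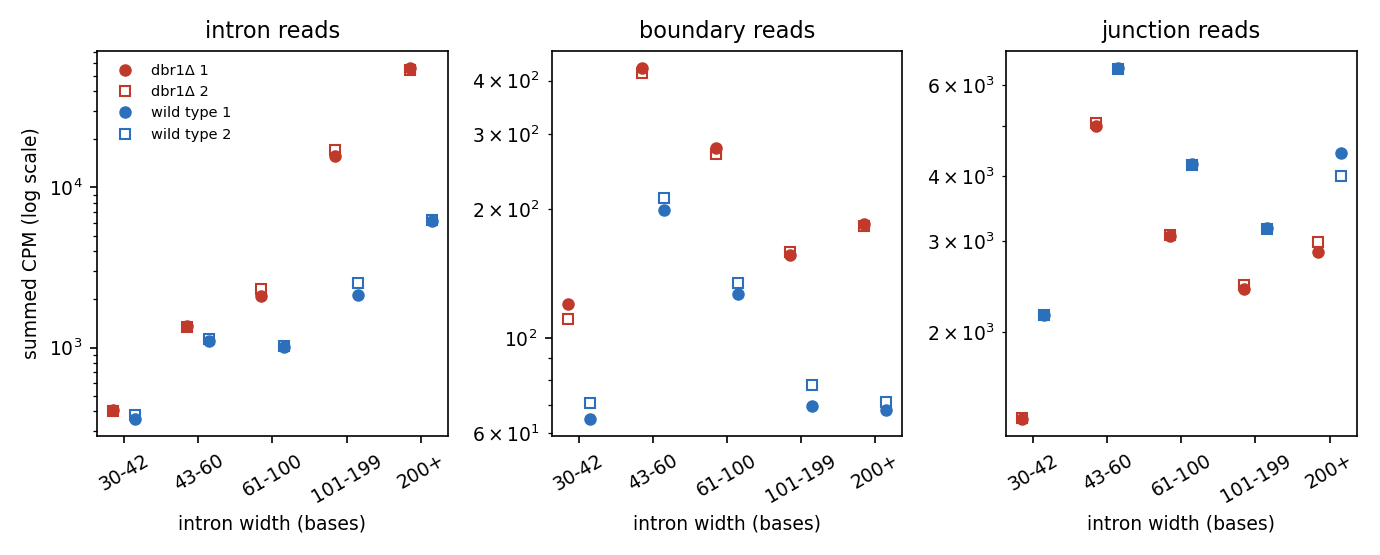
Summed CPM (log scale) of intron reads, boundary reads and junction reads by intron width, with dbr1Δ in red to the left of wild type in blue and one mark per library. Intron reads of the strains lie close at 30 to 42 bases (ratio 1.10) and far apart at 200 bases or more (ratio 8.79), whereas boundary reads are higher in dbr1Δ in every class. At 30 to 42 bases every intron read must overlap an exon, so intron reads are not a like measure across widths.

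The counts in the deposited expression values add boundary reads to intron reads. On that sum 62 of 294 tested short introns were higher in dbr1Δ cells (21.1%) by edgeR at more than 2-fold, against a background of 53.0% of 3117 introns, and 5 were lower (1.70%, background 1.32%). The median log2 fold change was 0.43 in short introns and 1.24 in all introns. Leaving out one library left 4 (dbr1Δ replicate 1), 5 (dbr1Δ replicate 2), 11 (wild-type replicate 1) and 12 (wild-type replicate 2) higher calls, and 1, 2, 1 and 1 lower calls in the same order. Since no whole read can lie inside these introns, the count measures reads that overlap an exon. The background includes introns wider than a read, so its counts are partly of another kind.

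By width within the range of 30 to 42 bases, the median difference was -1.32 in the 30 tested introns of 30 to 36 bases, -1.08 in the 169 of 37 to 39 bases and -1.04 in the 268 of 40 to 42 bases. The level of SE differed too, with a median of 1.88 in dbr1Δ cells against 3.49 in wild-type cells at 30 to 36 bases and 3.20 against 4.11 at 40 to 42 bases. Depth differed as well. Over all introns of the class, tested or not, the median was 5.5 junction reads per library at 30 to 36 bases and 13.25 at 40 to 42. The part of depth in the level of SE was not tested. No junction read was seen in 19 of the 57 introns of 30 to 36 bases, in 10 of the 262 of 37 to 39 and in 31 of the 432 of 40 to 42. These counts include introns not annotated in RefSeq, such as those of pof4 and htd2. At the edge of the rule, median SE at 42 bases was 3.23 in dbr1Δ cells against 4.08 in wild-type cells (93 tested), and at 43 bases, outside it, 3.20 against 4.41 (102 tested). No intron of a nuclear protein-coding gene measured 29 bases.

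**Figure D5:**
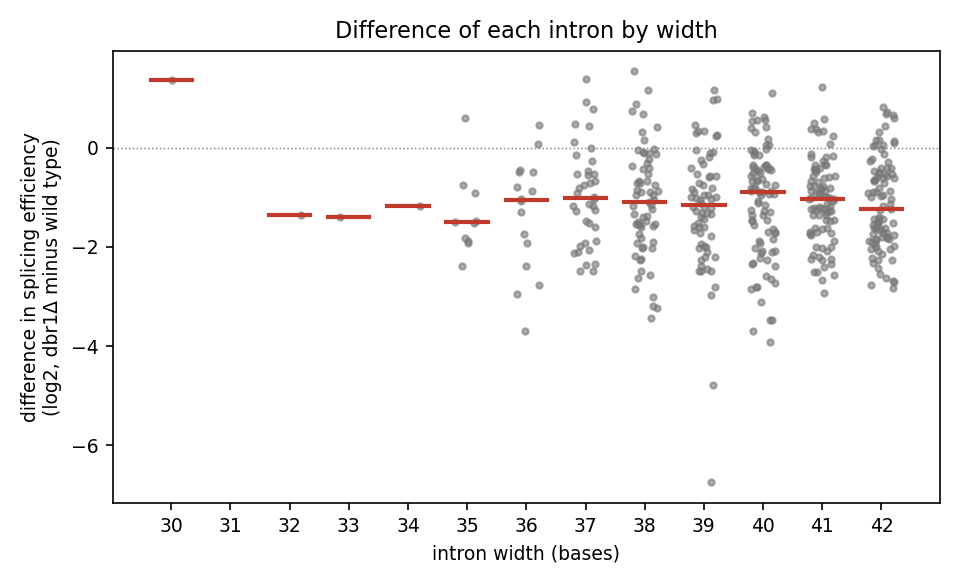
Difference in splicing efficiency (log2, dbr1Δ minus wild type) of each tested intron by width in bases, with the median of each width as a red bar. The medians lie between -0.90 and -1.50 from 32 to 42 bases, and the single intron at 30 bases is at 1.38. The lowest point is intron 3 of dbr1, which had no boundary or junction read in dbr1Δ, so its difference is no measure of splicing.

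Where a host had both short and wider tested introns (342 short introns in 266 hosts), the short intron's difference lay above the median of its host's wider introns in 184 cases and below it in 158, with a median gap of 0.15. By position, the median difference was -1.08 in 156 first introns, -0.998 in 160 internal, -1.04 in 97 last and -1.21 in 54 only introns. By opening, it was -0.84 in 104 introns with GTAAGT, -0.55 in 34 with GTAAGA, -1.21 in 91 with GTATGT and -1.25 in 211 with openings outside the 4 commonest. By pentamer it was -1.16 with CTAAC (133 tested), -1.06 with CTAAT (134), -1.35 with TTAAC (86) and -0.93 with none (33). These classes differ in depth, and no test was run between them.

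Grouped by the product of the host, the only cytosolic ribosomal protein gene was rps27. Of 17 tested introns in splicing genes 3 had lower SE (dre4, cwf7 and sme1), of 17 in ubiquitin and proteasome genes 3 (dss1, ubc13 and hus5), of 26 in transport and trafficking genes 5, of 35 in transcription and chromatin genes 5 and of 33 in RNA processing and translation genes 5. Kinases and phosphatases had 4 of 22 and mitochondrial proteins 0 of 4 by CMH. The cytoskeleton group had 2 of 21, nda3 and SPCC663.18. Its search of the product text for actin also took products with the word interacting, SPCC663.18 among them, so the group is not the cytoskeleton alone. These stand beside 15.0% of all tested short introns and 20.8% of all tested introns. The median was -1.55 in that mixed group. In the other groups of more than 10 tested introns medians lay between -0.96 and -1.11, beside -1.07 over all short introns.

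Several of these rest on few boundary reads. cwf7, of the Prp19 complex, had 3 and 3 boundary reads in dbr1Δ cells against 0 and 0 in wild-type cells and junction reads of 7 and 12 against 15 and 24 (SE difference -2.97, CMH adjusted p = 0.034, edgeR interaction adjusted p = 0.068). dss1, a proteasome-associated protein, also had 3 and 3 boundary reads in dbr1Δ cells against 0 and 0 in wild-type cells, with junction reads of 258 and 168 against 309 and 433 (SE difference -2.81, CMH adjusted p = 0.027). ubc13, a ubiquitin-conjugating enzyme, had 12 and 4 boundary reads in dbr1Δ cells against 2 and 1 in wild-type cells (SE difference -2.76, CMH adjusted p = 0.00035). eif21, annotated as the initiation factor eIF2A, had junction reads of 31 and 21 in dbr1Δ cells against 77 and 103 in wild-type cells (SE difference -2.85, CMH adjusted p = 0.0012). Of these, cwf7 fell below the threshold after thinning, with the edgeR interaction and without dbr1Δ replicate 1 or either wild-type replicate. dss1 did so after thinning and without dbr1Δ replicate 2 or either wild-type replicate, ubc13 without dbr1Δ replicate 1 or wild-type replicate 2, and eif21 without dbr1Δ replicate 1. sme1 did so after thinning (adjusted p = 0.064) and without dbr1Δ replicate 1 (1) or wild-type replicate 1 (0.15) or 2 (0.12), and hus5 after thinning (0.17) and without dbr1Δ replicate 2 (0.094) or wild-type replicate 1 (0.30) or 2 (0.12).

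In the larger groups, the RNA-binding protein gene rbm10 had 3 and 5 junction reads at intron 3 in dbr1Δ cells against 21 and 22 in wild-type cells, with boundary reads of 5 and 10 against 7 and 5 (SE difference -2.43, CMH adjusted p = 0.006, edgeR interaction adjusted p = 0.087). Its transcript was at 25.2 and 27.5 CPM in dbr1Δ cells against 42.2 and 46.5 in wild-type cells. SPAC1687.21, annotated as a fructose-2,6-bisphosphatase, had 22 and 21 boundary reads at intron 3 in dbr1Δ cells against 6 and 17 in wild-type cells and junction reads of 237 and 141 against 246 and 361 (SE difference -1.70, CMH adjusted p = 9.9e-05). SPAC823.02, whose intron belongs to another gene in the RefSeq annotation, had 473 and 315 junction reads in dbr1Δ cells against 858 and 1297 in wild-type cells and 23 and 18 boundary reads against 3 and 12 (SE difference -3.01, CMH adjusted p = 1.6e-12). Its boundary reads were above wild type in both dbr1Δ libraries, and an antisense transcript is annotated over it. The call for rbm10 was lost without dbr1Δ replicate 2 (adjusted p = 0.19) or wild-type replicate 2 (0.086).

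The hosts with the most short introns were rdh54, a DNA translocase of recombination, with 11 of its 14 introns, and trt1, the telomerase reverse transcriptase, with 9 of 15. The SE differences ranged from -2.81 to 0.60 in rdh54 (5 introns read well enough for the test) and from -2.27 to 0.07 in trt1 (7 tested). Intron 9 of rdh54 passed CMH (SE 3.0 and -0.22 in dbr1Δ cells against 4.00 and 4.39 in wild-type cells, adjusted p = 0.0083), but not the edgeR interaction (adjusted p = 0.061), nor CMH without dbr1Δ replicate 2 (adjusted p = 1). Introns of one transcript were read unequally. In trt1, intron 5 had 22 and 8 junction reads in dbr1Δ cells against 22 and 25 in wild-type cells, whereas intron 13 had 2 and 1 against 4 and 3, with boundary reads of 17 and 5 against 2 and 31.

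Of the 60 introns without a junction read, 11 had at least 10 boundary reads over the 4 libraries. Some of these, those of rrp36, pof4 and lea1, are not annotated in RefSeq and may not be introns. SPBC409.08, a transporter of the spermine family, had 49 and 33 boundary reads in dbr1Δ cells against 47 and 91 in wild-type cells at its only intron, and 0 junction reads beside these 220 boundary reads allow a ratio of junction to boundary reads of up to 1.36%. Its host was well read, at 86.8 and 74.2 CPM in dbr1Δ cells against 126 and 165 in wild-type cells. Among the others were rrp36 (121 boundary reads, not annotated in RefSeq), SPAC24B11.14 (66), rsn1 (55) and pth1 (38). The 30-base intron 2 of SPAC24B11.14, the shortest of the 751, was the one intron called lower in boundary reads. It had 9 and 8 in dbr1Δ cells against 18 and 31 in wild-type cells. The filter was met through the wild-type libraries alone, where its reads are high, so these values are given without a test. Its transcript was low, at 0.478 and 0.406 CPM in dbr1Δ cells against 1.21 and 1.07 in wild-type cells, and an antisense transcript is annotated over the intron. With factors from transcripts alone the call was lost, as it was without either dbr1Δ library. Without either wild-type library the intron could not be tested.

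Low SE in both strains also occurred with junction reads present. vma9, a subunit of the vacuolar ATPase, has a 40-base intron in an untranslated part with 140 and 91 boundary reads in dbr1Δ cells against 117 and 150 in wild-type cells, and 11 and 3 junction reads against 9 and 23. tsn1, the translin gene, had 63 and 51 boundary reads at intron 4 in dbr1Δ cells against 46 and 66 in wild-type cells, and 62 and 23 junction reads against 33 and 74. SE overlapped between strains at both (CMH adjusted p = 0.23 for vma9 and 0.47 for tsn1). SE was below 0 in both dbr1Δ libraries in 24 of the 467 tested introns, and in both wild-type libraries in 10. The same counts over all tested introns were not taken.

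The factors that recognise and process such introns were examined at the transcript level. Lists of splicing genes were tested with edgeR at any fold. Lower in dbr1Δ cells were 7 of 12 tested genes of branch-site and 3′ splice-site recognition and 6 of 7 of 5′ splice-site recognition. So were 5 of 5 SR proteins and their kinases, 13 of 16 of the catalytic core and 10 of 10 of lariat release and turnover. The last list includes dbr1, the deleted gene. None of these 50 genes was higher, also at an unadjusted p under 0.05 and by DESeq2, but with factors from transcripts alone the lower calls were 5, 3, 4, 9 and 7 in the same order and 2 genes were higher. Over all 6401 transcripts 2726 were lower and 1140 higher at any fold, and 1760 lower and 1716 higher with factors from transcripts alone. Apart from dbr1, the only gene on the lists past 2-fold was slu7, which acts at the second step of splicing, at 16.7 and 23.2 CPM in dbr1Δ cells against 41.3 and 41.7 in wild-type cells (log2 fold change -1.07, standard error 0.14, edgeR adjusted p = 0.00034). cwf19, which encodes a spliceosome-associated protein, stood at 41.4 and 42.9 CPM in dbr1Δ cells against 82.2 and 74.4 in wild-type cells (log2 fold change -0.89, edgeR adjusted p = 3.1e-05).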

How the data were processed

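RNA-seq of 2 dbr1Δ and 2 wild-type cultures was analysed from the table deposited by the authors. Per the study's methods, reads were aligned with Bowtie with up to 3 mismatches to the genome (Ensembl EF1) and to exon junctions of up to 43 bases from each exon, a spliced read needing at least 6 bases on either side, and reads matching several loci were removed. How strand entered the counting is not given in the sources used here, so reads over the 175 introns with an annotated antisense transcript may come from either. Count columns deposited by the authors are raw reads per locus and boundary reads, without normalization. Deposited log2 columns are log2(RPKM + 1e-05), used only to check that an intron's count is intron plus boundary reads, and SE, from which JR was recovered as whole numbers within 0.001. Fold changes (DESeq), p-values and q-values of the authors' own comparisons were not used. 

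EI, JR and locus counts (transcripts and introns together) were tested with edgeR 4.0.16 (quasi-likelihood, TMM factors from all loci, at least 10 counts in 2 libraries, R 4.3.3). Calls needed a Benjamini-Hochberg adjusted p under 0.05 over all features tested and a change over 2-fold. SE was tested by CMH (mean JR plus EI of at least 10, adjusted p under 0.05 at any fold) and by the edgeR interaction of read class and strain. Standard errors are the log2 fold change over the root of the F statistic. CPM use the TMM-scaled totals. An exact permutation test of 2 against 2 cannot go below p = 0.333 (two-sided), so none was used. Fits were tested on simulated data. Sequence features came from RefSeq ASM294v3, where intron coordinates equalled those of the files. Introns are named by a rule: up to 8 with the largest SE falls, the 5 largest rises and falls in EI and JR, the most read, the lowest wild-type SE, the shortest, the hosts with the most members, and up to 3 of each host group. A few introns that the rule takes are not reported here. Members and lists were chosen with earlier results of these data known. The values without the introns of dbr1, without rps27 and with a mean of at least 10 boundary or junction reads were added after seeing the data. Same-numbered libraries did not deviate together (r = -0.023 over loci and -0.021 over SE), so numbers were not treated as pairs outside CMH.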

Additional observations from a re-analysis of the deposited data

How the results depend on the processing

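The median SE difference kept its sign under every alternative run. Calls of lower SE (70) numbered 43 with the edgeR interaction, 43 after thinning to the smallest total, 22 with Bonferroni adjustment, and 30 to 60 when a library or a replicate number was left out (with the interaction 12 and 28 without dbr1Δ replicates 1 and 2, and 25 and 28 without wild-type replicates 1 and 2). Without the replicate block they numbered 69. With the replicate block, higher boundary calls (18) were 17, junction calls (10 higher, 69 lower) 8 and 67, intron counts (62 higher, 5 lower) 61 and 3, and no host count changed. With no low-count filter 37 introns were higher and 0 lower in EI. Requiring a mean of 50 counts left 0 and 0 in EI, 2 higher and 28 lower in JR, 3 and 2 in the intron count and 8 higher hosts. DESeq2 gave 8 and 0 in EI, 4 and 37 in JR and 31 and 2 in the intron count. Factors from transcripts alone gave 0 lower in EI, 16 higher in JR, 2 lower intron counts and 4 lower hosts, and RLE gave 2 lower in EI. With no fold cutoff, 124 were lower in JR, 12 in the intron count, and 58 hosts were higher and 287 lower. Leaving out a library gave 2 to 3 higher and 0 lower in EI, 0 to 1 higher and 3 to 14 lower in JR, 4 to 12 and 1 to 2 in the intron count, and 6 to 8 higher and 10 to 14 lower hosts. There an arm of 1 library is assumed to vary like the other. The median SE difference (-1.07) was -1.23 with a constant of 0.5, -0.79 with no minimum, -1.41 at a mean of at least 50 reads, -0.94 thinned, and -1.18 to -1.04 without one library. In named introns, thinning changed the SE call of 8 of 56, the interaction 5, and no direction of a call reversed. The depth of single introns, a median of 1.25 boundary reads, limits these counts. The cause of these shifts was not tested beyond the fewer reads or genes that a setting leaves.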
